A study of Mus musculus with 16 samples.

Results

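The comparison is that of preformed fibrils (PFF) with monomer (MONO) of α-synuclein (α-syn) in the macrophage population sorted from mouse brain. It uses 8 of the 16 expression tables of the study, 4 with each form of the protein, and pools them over genotype and sex. Its members were taken by cell type and treatment, and no expression value entered the choice. The 4 MONO tables and the 4 PFF tables form 4 pairs, each of one genotype and one sex, named F-KO, F-WT, M-KO and M-WT.

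Brain macrophages outside the parenchyma, the border-associated macrophages, live in the meninges, the perivascular space and the choroid plexus, and they carry the hemoglobin-haptoglobin scavenger receptor CD163. They take up and degrade material from the interstitial and cerebrospinal fluid and present peptides on MHC class II. Fibrils of α-syn injected into the striatum seed the aggregation of the endogenous protein in neurons. The monomer is reported to lack this seeding activity and serves as the protein control. The study reports that injected monomer raised CD68 and GFAP staining and brought CD4 T cells into the striatum of WT mice. It calls monomer as the control a limitation, and none of the libraries used here is from mice given PBS.

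All mice received α-syn into both striata at an age of 12 weeks and were killed 2 months later. The KO mice carry the CD163tm1.1(KOMP)Vlcg allele, and the WT mice are their C57BL/6N littermates. F and M open the sample titles, and the study used females and males. Between 4 and 7 mice were injected per group, and the KO MONO males were the smallest group. The cells were CD45 high and CD11b+ by flow cytometry, which by the study's own account takes in border-associated and infiltrated macrophages together with neutrophils and NK cells. Between 10000 and 30000 cells gave RNA for SMART-seq2, a library method for low input that primes on the poly(A) tail and covers whole transcripts. Triplicates were sequenced. The sources used here do not give whether 1 replicate or a pool stands behind each table, so the p-values below measure the spread between these 8 tables, part of which may be technical. The mice came in 2 batches that cannot be assigned to tables.

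Of the 8 libraries, 2 stood apart from the other 6. Estimated counts summed to between 12170686 and 21433841 per library. In the M-KO MONO and the M-WT PFF library the 10 most counted genes took 16.6% and 16.5% of the counts, and in the other 6 between 39.7% and 64.0%. Between libraries, Pearson's r over all genes on the log2(FPKM + 1) scale, a description since genes are not replicates, was 0.908 to 0.946 (median 0.934) among these 6. It was 0.766 to 0.79 between M-KO MONO and the 6, 0.71 to 0.73 between M-WT PFF and the 6, and 0.681 between the 2 libraries. The study's methods describe the KO MONO males as excluded from its own analysis for inconsistent technical replicates. Apoe, Cd74 and H2-Ab1 together took 7.07% and 6.96% of the counts of the 2 libraries and 17.43% to 42.94% elsewhere. The microglia tables of the same 2 groups of mice stood apart as well, with 47.7% and 58.7% of counts in the 10 most counted genes against 13.5% to 16.4% in the other 6. As each of the 2 libraries is one arm of a male pair, what sets them apart and the treatment cannot be told apart within those pairs. The pooled test is given with and without them, and so are the fold changes that moved by over 1.5 times without them.

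**Figure D1:**
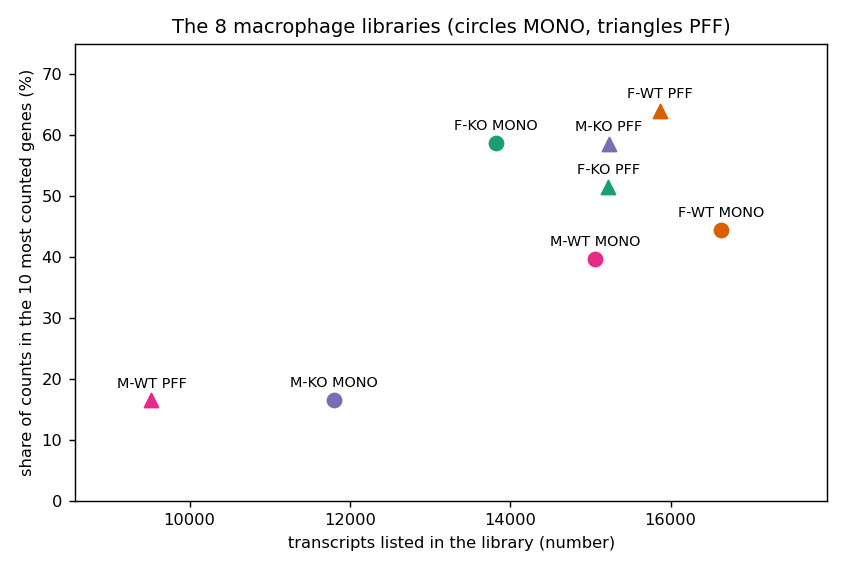
Each point is 1 macrophage library, with the number of transcripts listed on the x axis and the percentage of counts in its 10 most counted genes on the y axis; circles are MONO and triangles PFF. M-KO MONO and M-WT PFF lie near 16.5% and the other 6 between 39.7% and 64.0%, and M-WT PFF lists the fewest transcripts, 9524.

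Genotype and sex matched the labels in these 8 libraries. Cd163 had at most 1 count in a KO library and between 748 and 5275 in a WT library, and 4 Y-linked genes summed to at most 2 counts in F and to 350 or more in M libraries. Of 15 genes that mark border-associated macrophages, 14 or 15 reached an FPKM (counts scaled to transcript length and library size) of 1 in every library. All 14 markers of mature neutrophils did as well, and their summed FPKM, 20025 to 119371, exceeded that of the border-associated markers, 2483 to 6127, in each library. The population is therefore described below as the CD45 high/CD11b+ sort and not as macrophages alone. In such bulk samples, fewer cells of a type and less RNA per cell cannot be told apart.

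The question was whether a difference between fibril and monomer recurs over genotype and sex. Counts scaled by TMM factors were fitted with edgeR's quasi-likelihood test with the pair as a block. At an adjusted p under 0.05, 0 of 10601 genes tested were called (0%), and the lowest adjusted p was 1. At an unadjusted p under 0.05 there were 28 genes with higher values after PFF (0.264%) and 14 with lower values (0.132%), out of the same 10601. DESeq2 called 5 genes and gave 438 at an unadjusted p under 0.05, and limma on log2(FPKM + 1) called 2 and gave 371. A test that keeps its error rate gives a share near 0.05 of the genes that do not differ. The edgeR share was 0.396%, far below that, against 4.13% with DESeq2 and 4.63% with limma. The edgeR fit was thus conservative here, and its 0 calls do not show that there is no difference. The DESeq2 calls were Csnk1g3, Adam23 and Ptprcap (higher) and Gfra4 and Mlst8 (lower), and those of limma were Ear2 and Ndufb6 (both lower), of which Ptprcap, Ear2 and Ndufb6 are named here after their values were seen. Both limma calls had 0.111 CPM (4 counts) in M-WT PFF, which stands apart, against 86.6 (Ear2) and 102 CPM (Ndufb6) in M-WT MONO, and on the TMM scale both were higher after PFF in the M-KO pair. With 3 residual degrees of freedom, the values below are descriptions of 4 pairs unless a test is named, and a gene that was higher in 4 of 4 pairs has not been shown to differ.

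In 4 of 4 pairs, 472 genes were higher after PFF (4.45% of those tested) and 647 were lower (6.1%). All 4 PFF libraries lay above all 4 MONO libraries for 86 genes (0.811%) and below them for 141 (1.33%). These counts depend on the scaling. With library totals in place of TMM factors the median fitted log2 fold change of all genes moved from -0.07 to -0.56, and 70 genes (0.66%) were higher and 1121 (10.6%) lower in 4 of 4 pairs. Of the genes in 1 direction in 4 of 4 pairs, 52 were higher and 384 lower under both scalings. Of the 34 gene lists, 16 had a member higher in 4 of 4 pairs with TMM factors and 1 with library totals, the disease-associated microglia genes, and 14 had a fitted median above 0 with the former and below 0 with the latter. Fold changes below are from TMM scaling, as log2 of PFF over MONO ± SE. This SE is the absolute log2 fold change divided by the square root of the quasi-likelihood F statistic, and it is approximate. Levels are CPM, counts brought to a common library size by TMM scaling. They are listed in the order F-KO, F-WT, M-KO and M-WT, with the MONO libraries before the PFF libraries where both follow each other. The edgeR adjusted p is 1 for every gene tested in this comparison. Of the genes described below, Cd83, Dab2, Caprin1, Hspa5, Ccr2, Fn1, Ly6c2, H2-DMb2, Cd74, Apoe, P2ry12, Trem2, Prlr, Ctsa and Sqstm1 had counts divided between transcripts in 8 of 8 libraries, Spp1 had them in 6 and some others in 1 to 7, and their values are less certain.

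**Figure D2:**
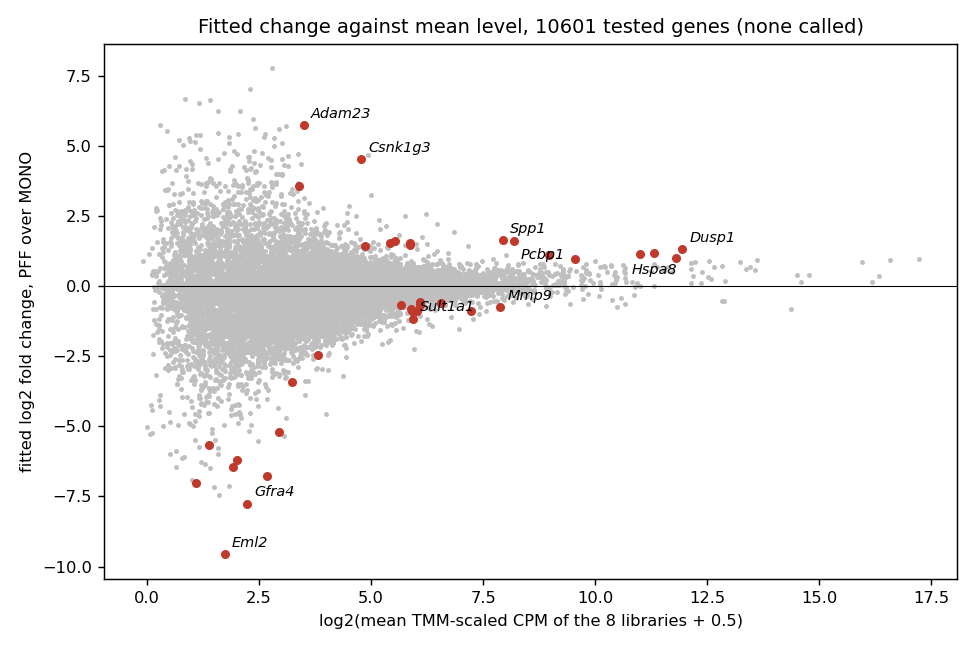
Each grey point is 1 of the 10601 genes tested, by log2 of its mean CPM plus 0.5 over the 8 libraries (x) and its fitted log2 fold change of PFF over MONO (y); red points are the genes named by rule for 1 direction in 4 of 4 pairs. Csnk1g3 and Spp1 stand at fold changes of 4.55 and 1.65, and the genes with the most negative fold changes have low mean levels; by library totals Csnk1g3 and Spp1 were higher in 4 of 4 pairs too.

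Csnk1g3 encodes the gamma 3 isoform of casein kinase 1. It had the lowest edgeR p among the genes that were higher after PFF in 4 of 4 pairs. Its levels were 4.9, 0.999, 0.875 and 4.55 CPM in the MONO libraries and 57.6, 38.3, 45.5 and 61.4 CPM in the PFF libraries. The groups did not overlap, and the lowest MONO value and the highest PFF value were those of the 2 libraries that stand apart. The fold change was 4.55 ± 0.68, and DESeq2 gave an adjusted p of 1.19e-08. Without both male pairs it was 4.36 ± 0.58. In the microglia of the same groups of mice, the levels were 10.9, 12.3, 15 and 20 CPM (MONO) and 6.29, 8.09, 7.72 and 30.4 CPM (PFF), which overlap. In microglia 3 of 4 pairs were lower after PFF. The counts of Csnk1g3 were whole numbers in 8 of 8 libraries, so none were divided between transcripts.

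Spp1 encodes osteopontin, a secreted phosphoprotein of activated macrophages and a member of the disease-associated microglia genes. It was measured at 89.1, 148, 86.6 and 122 CPM in MONO and at 183, 355, 652 and 335 CPM in PFF libraries. Each PFF library exceeded each MONO library, and the M-KO pair had the widest gap. The fold change was 1.65 ± 0.41, and 1.17 ± 0.37 without both male pairs. By library totals too, 4 of 4 pairs were higher. In microglia, levels were 89.9, 43.8, 19.1 and 36.7 CPM (MONO) and 39.2, 47.8, 52.7 and 42.7 CPM (PFF), with F-KO lower and the other 3 pairs higher after PFF. The microglia library labelled F-KO MONO, the highest of these, goes against its label, as described with the comparison of both populations.

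Pcbp1, an RNA-binding protein that also carries iron to ferritin, was at 232, 301, 35.6 and 48.6 CPM in MONO and 387, 869, 347 and 104 CPM in PFF libraries. It was higher in each pair under both scalings, with a fold change of 1.63 ± 0.49, although the groups overlapped. Cd83, a surface protein of activated antigen-presenting cells, was at 488, 335, 188 and 230.1 CPM in MONO and 893, 1075, 336 and 486 CPM in PFF libraries. The MONO and PFF values of Cd83 overlapped between pairs, its fold change was 1.12 ± 0.34, and by library totals 1 of the 4 pairs was lower. Rarg, the gamma retinoic acid receptor, was low in every MONO library (1.47, 0.785, 0.76 and 1.49 CPM) and higher in every PFF library (6.08, 12.9, 6.72 and 49.8 CPM), with no overlap and a fold change of 3.57 ± 1.11. Dab2, an endocytic adaptor and marker of border-associated macrophages, was at 492, 462, 579 and 362 CPM in MONO and 1750.3, 1173, 599 and 599 CPM in PFF libraries. The groups of Dab2 did not overlap, but the M-KO pair differed by little, the fold change was 0.99 ± 0.42 (1.61 ± 0.49 without both male pairs), and by library totals 1 pair was lower.

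Adam23, a disintegrin without protease activity known from neurons, and Ptprcap, which binds the CD45 phosphatase, were called by DESeq2 and not by edgeR, and Adam23 did not enter the limma fit. Adam23 was at 0, 0.143, 0.0691 and 1.73 CPM in MONO and 4.33, 62.5, 1.74 and 15.7 CPM in PFF libraries, where F-WT PFF held 635 counts and M-WT PFF, which stands apart, 569. The fold change was 5.75 ± 1.55, and 8.68 ± 0.81 without both male pairs, with a DESeq2 adjusted p of 0.00578. Ptprcap was at 0, 9.78, 0 and 0 CPM in MONO and 3.41, 13.5, 3.48 and 21.4 CPM in PFF libraries, so that 3 of the MONO libraries were at 0 and the groups overlapped through F-WT. Its fold change was 7.78 ± 2.99, and 2.23 ± 1.38 without both male pairs, and by library totals 1 pair was lower. Its DESeq2 adjusted p was 0.0323, the same as for Gfra4 and Mlst8.

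Other genes that the rule named as higher were Slc2a1 (glucose transporter 1), Ptms (parathymosin), Cited2 (a transcriptional co-regulator), Caprin1 (a stress granule protein) and Pdrg1. Their fold changes were 1.44 ± 0.46, 1.61 ± 0.51, 1.53 ± 0.52, 1.46 ± 0.50 and 1.53 ± 1.54 in that order. Without both male pairs they were 1.41 ± 0.36, 2.13 ± 0.42, 0.71 ± 0.36, 1.88 ± 0.60 and 0.54 ± 0.37, so that the fold changes of Cited2 and Pdrg1 were smaller, and those of Ptms and Caprin1 larger, than over the 4 pairs. By library totals Ptms was higher in 4 of 4 pairs and the other 4 in 3 of 4. In all, 6 of the 16 genes named as higher kept their direction in 4 of 4 pairs under library totals, where 0.66% of all genes were higher, and 5 had no overlap between the groups, against 0.811% of all genes. Both counts are descriptions, since the rule chose these genes for being higher in 4 of 4 pairs.

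**Figure D3:**
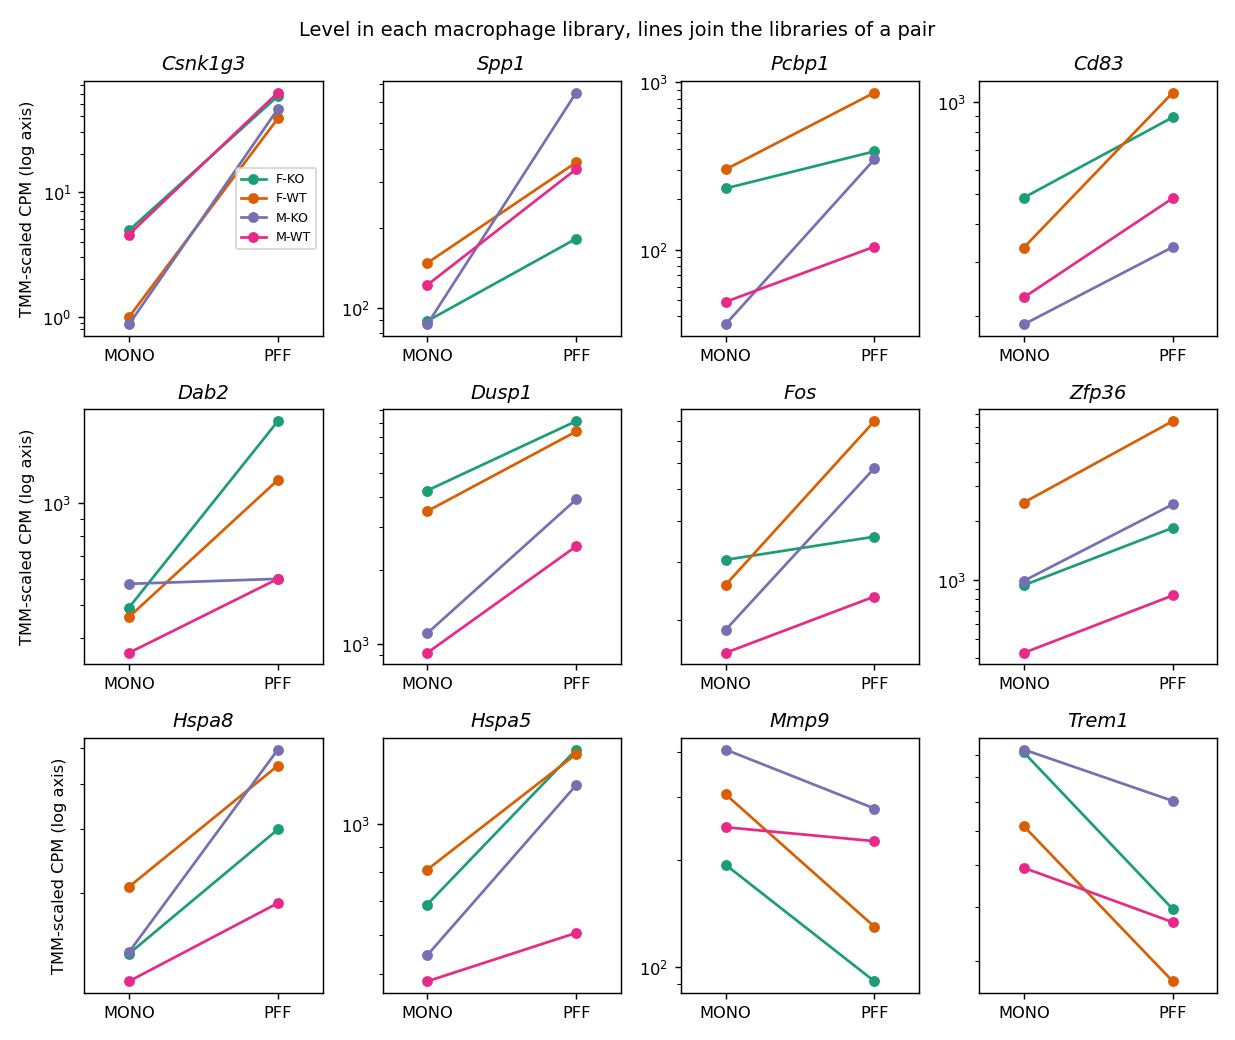
Levels of 12 genes as TMM-scaled CPM on a log axis, MONO on the left and PFF on the right of each panel; a line joins the 2 libraries of a pair. Csnk1g3 and Spp1 show PFF libraries all above the MONO libraries; Mmp9 and Trem1 run downwards in every pair. By library totals 1 pair runs upwards for Mmp9 and Trem1, 1 pair runs downwards for Cd83, Dab2, Fos, Zfp36 and Hspa8, and 2 pairs run downwards for Dusp1 and Hspa5.

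Most of the genes with the lowest p among those lower in 4 of 4 pairs were close to the detection limit after PFF. Eml2, which encodes a microtubule-associated protein, was at 2.08, 3.07, 13.7 and 3.7 CPM in MONO and at 0 in every PFF library. Of its counts, 594 were in M-KO MONO, which stands apart, and 17, 43 and 92 in the MONO libraries of F-KO, F-WT and M-WT. Gfra4, a co-receptor for neurotrophic factors of the GDNF family, was at 3.92, 16.3, 8.29 and 4.07 CPM in MONO libraries and above 0 in 1 of 4 PFF libraries, M-KO, with 1.03 CPM. Mlst8, a subunit of both mTOR complexes, was at 4.66, 11.6, 15 and 11.6 CPM in MONO and 0.0921, 0, 3.88 and 0 CPM in PFF libraries. Olr1, an oxidised LDL receptor, was at 1.23, 4.21, 5.71 and 1.61 CPM in MONO and at most 0.197 CPM in PFF libraries.

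Gimap3, Lrp8 (the apolipoprotein E receptor 2) and Cyp11a1 (the first enzyme of steroid synthesis) had the same form, with PFF libraries all below the MONO libraries and no MONO value above 12.5 CPM. Map3k7, the TAK1 kinase of Toll-like receptor and cytokine signalling, was the better counted gene of this kind. It was at 11, 43, 34.1 and 4.07 CPM in MONO and 6.35, 2.46, 7.2 and 0.637 CPM in PFF libraries, lower within each pair but overlapping between pairs, with a fold change of -2.45 ± 0.93. Telo2 and Plpp6 were lower in each pair too, with fold changes of -3.43 ± 1.37 and -5.21 ± 1.90, and of -2.58 ± 0.63 and -3.09 ± 1.06 without both male pairs. All of these genes stayed lower in 4 of 4 pairs by library totals.

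Among genes with a mean of at least 50 CPM, the rule named 10 as lower. Pygl, liver glycogen phosphorylase, was at 68.8, 65.2, 95.6 and 72.5 CPM in MONO and 44, 21.1, 69.7 and 40 CPM in PFF libraries, with a fold change of -0.89 ± 0.37. Atp2b1, a calcium pump of the plasma membrane, had a fold change of -0.88 ± 0.46 and Iscu, the scaffold of iron-sulfur cluster assembly, one of -0.59 ± 0.36. Without both male pairs the fold changes were -1.11 ± 0.40 (Pygl), -0.36 ± 0.38 (Atp2b1) and -0.44 ± 0.35 (Iscu). These 3 kept their direction in 4 of 4 pairs by library totals, while Chil1, Trem1, Mmp9, Psma4, Tmbim4, Rbm5 and Sult1a1 were lower in 3 of 4. Sult1a1, a sulfotransferase, illustrates the weight of 1 library, since it was at 101, 61.1, 65.7 and 51.4 CPM in MONO and at 87.4, 58.1, 57 and 0.0277 CPM in PFF libraries. Its fold change was -1.15 ± 1.44, and -0.12 ± 0.34 without both male pairs. Of the 20 genes named as lower, 13 kept their direction in 4 of 4 pairs by library totals, where 10.6% of all genes were lower, and 7 had no overlap, against 1.33%, but the rule chose them for being lower in 4 of 4 pairs.

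Immediate early genes are switched on within minutes of a stimulus, without new protein synthesis, by factors such as CREB and SRF. Of 18 such genes tested, 5 were higher after PFF in 4 of 4 pairs, against 4.45% of all genes, and 0 were lower. These 5 were Fos (a subunit of the AP-1 factor), Junb (its partner), Dusp1 (a phosphatase of MAP kinases), Zfp36 (which destabilises cytokine mRNA) and Btg2 (an antiproliferative gene). The fitted median of the list was 0.58, beside -0.07 for all genes, and none of the 18 was called by edgeR.

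The promoters of Dusp1 and Btg2 are printed because both hold a cyclic AMP response element (CRE, TGACGTCA), the site that CREB binds. They are windows of 300 bases around the RefSeq start on GRCm38.p6, 5′ to 3′ on the strand of the gene, with the CRE in capitals. Dusp1 spans chr17:26508423-26508722 and Btg2 spans chr1:134079106-134079405, both on the minus strand.
Dusp1: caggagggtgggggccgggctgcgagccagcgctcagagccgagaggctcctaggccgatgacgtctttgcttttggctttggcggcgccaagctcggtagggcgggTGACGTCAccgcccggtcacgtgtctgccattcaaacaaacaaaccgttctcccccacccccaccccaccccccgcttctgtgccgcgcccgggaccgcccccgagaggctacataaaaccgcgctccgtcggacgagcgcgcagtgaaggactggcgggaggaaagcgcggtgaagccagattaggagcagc
Btg2: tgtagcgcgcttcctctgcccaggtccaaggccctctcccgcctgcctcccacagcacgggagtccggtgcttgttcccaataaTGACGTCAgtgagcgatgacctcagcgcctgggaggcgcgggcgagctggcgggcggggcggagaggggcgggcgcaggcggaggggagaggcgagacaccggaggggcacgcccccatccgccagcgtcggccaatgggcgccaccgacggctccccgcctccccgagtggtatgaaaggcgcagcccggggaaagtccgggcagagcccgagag
The CRE begins at position -143 from the start of Dusp1 and at -166 in Btg2. Searched on both strands, it was in 588 of 32851 promoter windows (1.79%), and it was not in those of Fos, Junb and Zfp36. Only the exact sequence TGACGTCA was searched, so a site that differs from it by a base was not counted. A match of letters is no evidence that a factor binds there.

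Dusp1 was at 4230.3, 3483, 1105 and 919.6 CPM in MONO and 8129, 7372, 3892 and 2505 CPM in PFF libraries. It was higher in each pair although the MONO values of the F pairs overlap the PFF values of the M pairs, and its fold change was 1.32 ± 0.54, but by library totals it was higher in 2 pairs and lower in 2. Btg2 was at 811, 1008, 945 and 574 CPM in MONO and 1344, 2027, 1188 and 906 CPM in PFF libraries, with a fold change of 0.68 ± 0.37, and split 2 to 2 by library totals as well. Fos was at 3047, 2556, 1867 and 1592 CPM in MONO and 3581, 8019, 5779 and 2359 CPM in PFF libraries, and Zfp36 at 942, 2480.0, 992 and 427 and 1845, 6437, 2428 and 836 CPM. The fold changes of Fos, Zfp36 and Junb were 1.02 ± 0.56, 1.15 ± 0.43 and 0.73 ± 0.33, each with 1 pair lower by library totals.

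The medians of the list within the pairs were 0.51, 0.78, -0.03 and 0.82. By library totals, the fitted median was 0.15, by limma on log2(FPKM + 1) it was -0.01, and by library totals no member was higher in 4 of 4 pairs, against 0.66% of all genes. In the F pairs alone, 13 of 18 members were higher in both, where 24.3% of all genes were, and 1 was lower in both, where 25.8% of all genes were. By library totals these counts were 4 higher, against 6.62%, and 3 lower, against 27.3%.

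Heat shock proteins fold nascent and damaged proteins, and chaperones of the Hspa8 and Dnajb1 kind are known to act on α-syn fibrils. Of 16 tested, 6 were higher in 4 of 4 pairs (Hspa8, Hspa5, Hsp90ab1, Hspd1, Dnajb1 and Hspa4), against 4.45% of all genes, and 0 were lower. Hspa8, the constitutive Hsc70, was at 1363, 2081, 1377 and 1145 CPM in MONO and 2994, 4482, 4960.4 and 1878 CPM in PFF libraries, with a fold change of 1.20 ± 0.48 and 1 pair lower by library totals. Hspa5, which encodes the endoplasmic reticulum chaperone BiP, was at 689, 809, 546 and 484 CPM and 1406, 1378, 1194 and 605 CPM, with a fold change of 0.81 ± 0.36. Its groups overlapped through the M-WT PFF library alone, and by library totals 2 of the 4 pairs were lower.

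The promoter of Hspa5 is printed for its endoplasmic reticulum stress element (ERSE, CCAAT and CCACG with 9 bases between them), which begins at position -65, and an AP-1 site (TGANTCA), which begins at -182. The window is chr2:34771840-34772139 on the plus strand of GRCm38.p6, from RefSeq, with both matches in capitals.
Hspa5: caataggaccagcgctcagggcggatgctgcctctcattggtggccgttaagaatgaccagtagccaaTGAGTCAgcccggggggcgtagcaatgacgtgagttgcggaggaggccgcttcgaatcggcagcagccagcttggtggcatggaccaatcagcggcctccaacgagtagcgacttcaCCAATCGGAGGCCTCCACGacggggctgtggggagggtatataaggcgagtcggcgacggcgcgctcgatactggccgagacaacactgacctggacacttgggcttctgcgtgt
The ERSE was in 39 of the 32851 windows (0.119%) and the AP-1 site in 2565 (7.81%), on either strand. The heat shock element (GAA, TTC and GAA with 2 bases between neighbours), which the factor Hsf1 binds, was in 198 windows (0.603%). Of the members that were higher in 4 of 4 pairs, Hspd1 held it in the window of 1 of its 2 starts, where 2 matches overlap, and Hspa5, Dnajb1 and Hspa4 did not, while Hspa8 and Hsp90ab1 were not searched.

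The inducible forms Hspa1a and Hspa1b, near-identical copies between which reads are divided, were each higher in 2 and lower in 2 pairs, with fold changes of 0.59 ± 0.50 (-0.17 ± 0.39 without both male pairs) and 0.21 ± 1.47. Hsp90aa1 had a fold change of -0.19 ± 0.71. The medians of the list by pair were 0.48, 0.20, 1.58 and 0.46, so that the M-KO pair, one of whose libraries stands apart, gave the highest. The fitted median was 0.54, and it was 0.06 by library totals, where no member was higher in 4 of 4 pairs, and 0.19 without both male pairs.

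Markers of mature neutrophils, short-lived phagocytes of the blood that carry CD11b, had 1 direction in the F pairs. All 14 tested were lower after PFF in both F pairs, where 25.8% of all genes were, and 12 of 14 were by library totals, where 27.3% were. S100a8, which encodes a subunit of the calprotectin that fills neutrophil cytosol, was at 36908 CPM (MONO) and 7691 CPM (PFF) in F-KO and at 26085 and 10536 CPM in F-WT. In the M-KO pair the order was the opposite, with 7378 CPM (MONO) and 52955 CPM (PFF), and in M-WT the values were 21379 and 8005 CPM. The fold change over the 4 pairs was -0.80 ± 1.37, smaller than its error, and -1.76 ± 1.00 in the F pairs.

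The medians of the 14 markers by pair were -1.19, -1.22, 0.09 and -0.06, and the fitted median was -0.39 over 4 pairs and -1.18 without both male pairs. Mmp9 (gelatinase B) and Trem1 (an activating receptor of neutrophils and monocytes) were lower in 4 of 4 pairs, 2 of 14 against 6.1% of all genes. Mmp9 was at 194, 305, 406 and 247 CPM in MONO and 91.4, 129.9, 278 and 225 CPM in PFF libraries, with a fold change of -0.75 ± 0.33, and Trem1 at 91.2, 61.6, 92.6 and 49.3 and 39.6, 27, 70.5 and 36.9 CPM, with -0.80 ± 0.36. Both overlapped between pairs, and both were lower in 3 of 4 pairs by library totals. Retnlg, a resistin-like protein of neutrophils, was the marker that was lower in 4 of 4 pairs by library totals.

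For granule proteins made in neutrophil precursors, all 11 genes tested had a fitted fold change below 0 (5730 of 10601 over all genes), with a median of -0.75, but the direction differed between pairs. Of the 11, 5 were lower in both F pairs (Camp, Ltf, Ngp, Chil3 and Prtn3), where 25.8% of all genes were, and Mpo and Elane, the enzymes of primary granules, were higher in F-KO and lower in F-WT. Mpo was at 19.1, 196, 281 and 254 CPM in MONO and 77.4, 18.2, 93.6 and 55.3 CPM in PFF libraries. The pair medians of this list were 0.36, -2.33, 0.56 and -1.46.

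**Figure D4:**
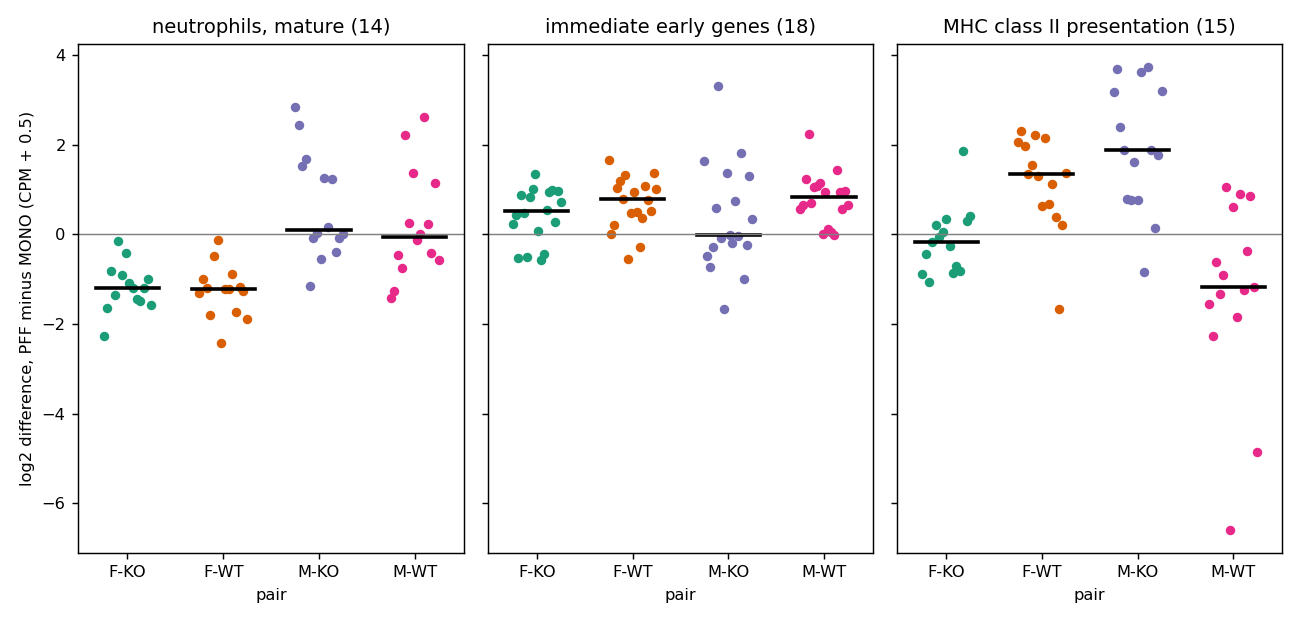
Each point is 1 gene of a list, and its y value is the log2 difference of PFF and MONO (CPM + 0.5) within the pair on the x axis; bars are medians. The 14 mature neutrophil markers lie below 0 in both F pairs. In the M pairs their medians are near 0, but their summed CPM went from 13388 to 74032 in M-KO and from 31292 to 14029 in M-WT. Immediate early genes lie mostly above 0 in F-KO, F-WT and M-WT, and MHC class II genes differ in direction between pairs. By library totals, 12 of 14 neutrophil markers lie below 0 in both F pairs and 4 of 18 immediate early genes lie above 0 in both.

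Infiltrating monocyte genes were lower in both F pairs for 7 of 12, against 25.8% of all genes, and higher for 1, against 24.3% (Ccr2, the receptor that draws monocytes from blood). By library totals 9 were lower, against 27.3%, and 0 higher. Fn1 (fibronectin) and Vcan (versican) were lower in 4 of 4 pairs under both scalings. They were the 2 of 12 to be so on the TMM scale, against 6.1% of all genes, and by library totals 6 of 12 were, against 10.6%. Fn1 was at 57.4, 56.9, 105 and 118 CPM in MONO and 39.7, 35.5, 99.6 and 63.7 CPM in PFF libraries, with a fold change of -0.55 ± 0.33, and the groups overlapped. Ly6c2, the antigen of inflammatory monocytes, was at 171, 218, 233 and 243 and 98, 129, 332 and 99.7 CPM, with the M-KO pair in the other direction. The list had pair medians of -0.71, -0.57, 0.14 and -0.68.

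Lymphoid and dendritic cell genes had few members of 1 direction. Of 12 NK and T cell genes tested, 0 were higher or lower in 4 of 4 pairs, and the T cell gene Cd3e was counted in 1 of 8 libraries. Nkg7, a granule protein of cytotoxic cells, was at 53.1, 62.5, 35.8 and 87.6 CPM in MONO and 35.6, 36.1, 48.5 and 70.8 CPM in PFF libraries. Among 5 B cell genes, Cd79a was lower in 4 of 4 pairs (6.1% of all genes were), with 10.7, 12.7, 22.9 and 15.8 and 1.75, 12.5, 20.1 and 0 CPM. Among 11 dendritic cell genes, Clec9a was lower in 4 of 4 pairs, with 1.23, 0.0714, 13.6 and 3.3 and 0, 0, 1.74 and 0 CPM. Cd209a, a lectin of monocyte-derived dendritic cells, stood at 1760.1, 1039, 573 and 1800.4 CPM in MONO and 2142, 1801, 1502 and 695 CPM in PFF libraries, lower in the M-WT pair and higher in the other 3, but by library totals higher in 1 and lower in 3.

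MHC class II genes present extracellular peptides to CD4+ T cells. Their direction differed between pairs, with medians of -0.16, 1.35, 1.87 and -1.18, and 1 of 15, H2-Ob, was higher in 4 of 4 pairs, against 4.45%. Cd74, the invariant chain, was at 128368, 64558, 10400.5 and 43612 CPM in MONO and 107298, 287910.0, 127385 and 12132 CPM in PFF libraries. The lowest values of each group were those of the 2 libraries that stand apart, and its fold change of 0.93 ± 2.41 was smaller than its error. H2-Ab1, the class II beta chain, was at 85995, 40115, 5793 and 34156 and 63799.8, 198985, 74315 and 7092 CPM, again with the 2 libraries lowest. In the F pairs, Cd74 was lower after PFF in F-KO and higher in F-WT on the TMM scale, and by library totals 1 of its 4 pairs was lower, M-WT. In both F pairs, 5 of the 15 genes were higher and 0 lower on the TMM scale, against 24.3% and 25.8% of all genes, and by library totals 7 were higher and 2 lower, against 6.62% and 27.3%. H2-DMb2, a subunit of the peptide exchange factor, was higher in 3 of 4 pairs, with a fold change of 0.99 ± 0.48.

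MHC class I genes, type I interferon response genes and cytokines showed few members of 1 direction. Of 13 class I genes, Pdia3, a disulfide isomerase of the peptide loading complex, was higher in 4 of 4 pairs, with 503, 566, 541 and 354 CPM in MONO and 849.9, 920.5, 739 and 503 CPM in PFF libraries. Of 17 interferon response genes, Usp18, which shortens the interferon signal, was higher in 4 of 4, with 20.4, 56.7, 55.5 and 43.9 and 41.7, 62.3, 56.9 and 68 CPM. Of 19 cytokines and NF-kB targets, Cd14, the co-receptor of Tlr4, was higher in 4 of 4, with 1554, 1034, 524 and 723 CPM in MONO and 2355, 2221, 1219 and 788 CPM in PFF libraries and a fold change of 0.76 ± 0.41. Pdia3 and Usp18 split 2 to 2 by library totals and Cd14 was higher in 3 of 4. These are 1 gene in each list, where 4.45% of all genes had that direction.

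Tnf, Il1b and Ccl2 were each higher in 3 of 4 pairs, with fold changes of 0.60 ± 0.73, 0.30 ± 0.43 and 0.43 ± 0.36. Il1b was at 521, 273, 176 and 264 CPM in MONO and 242, 533, 309 and 356 CPM in PFF libraries, with the F-KO pair in the other direction, and by library totals Il1b was higher in 1 pair and Tnf and Ccl2 in 2. Nos2 had counts in 1 library and Il6 reached at most 4.24 CPM. In the Il10 axis, the glucocorticoid receptor Nr3c1 and its target Fkbp5 were lower in 4 of 4 pairs, 2 of 14 against 6.1%, with fold changes of -0.30 ± 0.38 and -2.02 ± 1.95, while the target Tsc22d3 was higher in 3 of 4, with 0.61 ± 0.41. Without both male pairs Fkbp5 had -0.71 ± 1.05 and Tsc22d3 -0.04 ± 0.39. By library totals Nr3c1 split 2 to 2 and Fkbp5 was lower in 4 of 4, while Tsc22d3 split 2 to 2.

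The pair medians of border-associated macrophage markers were 0.13, 0.31, 0.21 and 0.26. The list holds Cd163, which is deleted in KO mice. The M-KO median is the value of Cd163 itself, from 0 counts in MONO and 1 in PFF. The fitted median of the list was 0.21, and it was -0.26 by library totals. Mrc1, the mannose receptor, was at 537, 401, 949.6 and 507 CPM in MONO and 799, 561, 638 and 858 CPM in PFF libraries, with a fold change of 0.32 ± 0.38. Stab1 and Dab2, scavenger receptor and adaptor, were higher in 4 of 4 pairs, 2 of 15 against 4.45%. Lyve1, the hyaluronan receptor of perivascular macrophages, was higher in 2 and lower in 2 pairs. Cd163 itself, which only the WT pairs can show, was at 70.4 and 73.6 CPM in F-WT and at 70.2 and 146 CPM in M-WT, MONO before PFF.

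Homeostatic microglia genes were counted in this sort as well, and 4 of 12 were higher in 4 of 4 pairs (Tmem119, Gpr34, Olfml3 and Selplg), against 4.45% of all genes, each splitting 2 to 2 by library totals. Tmem119, a surface protein that separates microglia from other brain macrophages, was at 36.5, 113, 71.6 and 46 CPM in MONO and 81.1, 168, 82.8 and 126 CPM in PFF libraries, with a fold change of 0.85 ± 0.36. P2ry12, the purinergic receptor of resting microglia, was at 102, 132, 54 and 76.4 and 124, 86.2, 58.3 and 124 CPM and differed by 0.12 ± 0.35. The part of admixed microglia in these values was not tested.

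Of 17 disease-associated microglia genes, Spp1 and Ctsd were higher in 4 of 4 pairs, against 4.45%. Ctsd, the lysosomal protease cathepsin D that cleaves α-syn, was at 1044, 2091, 1038 and 597 CPM in MONO and 1455, 3945, 2199 and 686 CPM in PFF libraries, with a fold change of 0.67 ± 0.42 and a 2 to 2 split by library totals. Ctsb, cathepsin B, was higher in 3 of 4 pairs by TMM scaling and in 4 of 4 by library totals, with 8662, 9867, 2951 and 3763 and 15102, 22245, 11423 and 2799.6 CPM. Apoe, Trem2 and Clec7a had fold changes of 0.98 ± 2.83, 0.52 ± 0.35 and -0.06 ± 0.37. Gpnmb was above 1 CPM in 2 libraries of each group.

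Receptors that bind fibrils or other danger signals had a fitted median of 0.22 over 17 genes, but of -0.28 by library totals and -0.15 by limma. The integrin subunit Itgb2 was higher in 4 of 4 pairs, 1 gene against 4.45% of all genes, and split 2 to 2 by library totals. Tlr2 and Tlr4, which α-syn aggregates are known to engage, had fold changes of 0.39 ± 0.39 and 0.20 ± 0.47. Lag3, a receptor reported to bind α-syn fibrils, was at 1.96, 12.5, 0 and 2.09 CPM in MONO and 17.6, 21.3, 25.7 and 0.277 CPM in PFF libraries. It was higher in 3 of 4 pairs and was close to 0 in the M-WT PFF library, so that its fold change of 2.06 ± 2.54 was smaller than its error. Without both male pairs Lag3 had a fold change of 1.91 ± 0.72.

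Among 14 complement genes, C3ar1 (the C3a receptor) and C4b were higher in 4 of 4 pairs, against 4.45% of all genes. C3ar1 was at 225, 204, 157 and 188 CPM in MONO and 327, 472, 193 and 216 CPM in PFF libraries, with a fold change of 0.56 ± 0.32. C4b was at 104, 109, 124 and 102 and 144, 133, 162 and 154 CPM, with no overlap and a fold change of 0.44 ± 0.29. C1qa, C1qb and C1qc, the chains of the first component, had fold changes of 0.68 ± 0.63, 0.94 ± 1.14 and 0.72 ± 0.89. By library totals C3ar1 was higher in 3 of 4 pairs and C4b in 2.

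Of 25 lysosome and autophagy genes, which degrade what phagocytes take up, 12 were higher in both F pairs, against 24.3%, and 2 were lower in both, against 25.8%, but by library totals 2 were higher, against 6.62%, and 5 lower, against 27.3%. Ctsa, Hexa and Sqstm1 were higher in 4 of 4 pairs, against 4.45%, but by library totals 0 of 25 were, against 0.66%, and 3 were lower in 4 of 4, against 10.6%. Ctsa, the protective protein cathepsin A, was at 1427, 1437, 844 and 862 CPM in MONO and 2154, 3012, 1727 and 1105 CPM in PFF libraries, with a fold change of 0.76 ± 0.41. Sqstm1, the autophagy receptor p62, was at 73.3, 112, 66.7 and 88.1 and 86.7, 120.0, 71.7 and 116 CPM, a fold change of 0.21 ± 0.30. Lamp1 was at 8618, 4774, 642 and 2808 CPM in MONO and 4772, 8293, 12023 and 317 CPM in PFF libraries, and the lowest library of each group was again the one that stands apart.

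Parkinson disease genes had 0 of 15 members higher or lower in 4 of 4 pairs, where 4.45% and 6.1% of all genes were, too few genes to tell apart from that background. Lrrk2 had a fold change of -1.08 ± 1.46 (-1.89 ± 1.11 without both male pairs), Park7 of 0.17 ± 0.43 and Vps35 of 0.45 ± 0.59. In heme and iron handling, 1 of 17, the iron carrier transferrin (Trf), was higher in 4 of 4 pairs, against 4.45%, with 2045, 2893, 1633 and 1296 CPM in MONO and 4079, 5288, 2783 and 1416 CPM in PFF libraries. Hmox1, which degrades heme, had a fold change of -0.06 ± 0.41, Fth1 of 0.51 ± 0.84 and Slc40a1 (ferroportin) of 0.16 ± 0.64.

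Calcium handling sets the strength of many signals in phagocytes, and 6 of its 29 genes had 1 direction in 4 of 4 pairs, 2 higher against 4.45% and 4 lower against 6.1%. By library totals 0 were higher, against 0.66%, and 4 lower, against 10.6%, and the fitted median moved from -0.09 to -0.56, beside -0.56 for all genes. Camk1 (a calmodulin-dependent kinase) and Ryr1 (a calcium release channel) were higher, and Atp2b1, Itpr1, Ppp3ca and Ppp3cb were lower. Camk1 was at 138, 127, 117 and 124 CPM in MONO and 217, 213, 162 and 176 CPM in PFF libraries, with no overlap and a fold change of 0.59 ± 0.29, and split 2 to 2 by library totals. The calcineurin subunit Ppp3ca was at 23.2, 21.3, 39.8 and 23.1 and 19.9, 14.6, 16.1 and 12.1 CPM, with no overlap and a fold change of -0.75 ± 0.56. Atp2b1 was at 107, 91.9, 60.9 and 54 and 62.9, 91.4, 41.7 and 11 CPM.

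In the DNA damage response, Trp53 (p53) and its target Cdkn1a (p21) were higher and Rad50 lower in 4 of 4 pairs, 2 and 1 of 23 tested against 4.45% and 6.1% of all genes. Cdkn1a was at 68.3, 56.3, 24.2 and 36.7 CPM in MONO and 76.2, 97.4, 78.1 and 41.4 CPM in PFF libraries, with a fold change of 0.70 ± 0.41 and a 2 to 2 split by library totals. Of 18 cell cycle genes, 17 had a fitted fold change below 0, where 5730 of 10601 of all genes did, and Mki67, Mcm2 and Cdc20 were lower in 4 of 4 pairs, where 6.1% of all genes were. Mki67, the proliferation antigen, was at 12.1, 15.1, 48.3 and 21.5 CPM in MONO and 10.9, 6.79, 24.7 and 0.0277 CPM in PFF libraries, and Mcm2, a subunit of the replicative helicase, at 18.8, 12.5, 27.6 and 15.4 and 8.47, 5.61, 10 and 0 CPM. The pair medians of the list were -0.12, -0.76, -0.35 and -1.42 beside 0.00, -0.04, 0.22 and -0.72 for all genes, the fitted median was -0.93, and it was -0.48 without both male pairs. Stmn1, which neutrophil precursors and other dividing cells express, was at 93.4, 106, 59.7 and 95.2 and 40.6, 61.9, 62.3 and 18.7 CPM, and the part of neutrophil precursors in this list was not tested.

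In glycolysis, Slc2a1 and Pgam1 were higher in 4 of 4 pairs, 2 of 16 against 4.45%, but by library totals 0 were higher, against 0.66%, and 2 lower, against 10.6%, and the fitted median was 0.06 by TMM scaling and -0.43 by library totals. Slc2a1 was at 9.81, 34.4, 3.34 and 17.9 CPM in MONO and 28.1, 82.2, 11.1 and 43.5 CPM in PFF libraries, and Pgam1 differed by 0.08 ± 0.28. Of the 8 genes that the study's text names for macrophages of WT females after PFF against MONO, 6 had counts and 1, Rsc1a1, passed the filter. Rsc1a1 was at 1.59, 2.36, 8.64 and 1.09 CPM in MONO and 0.553, 3.44, 0.949 and 0.0277 CPM in PFF libraries. On the TMM scale it was higher after PFF in the F-WT pair and lower in the other 3. By library totals it was lower in 4 of 4 pairs, F-WT included. The study lists Rsc1a1 as downregulated after PFF in macrophages of WT females. The study chose these genes on these samples, so they are no independent evidence of a direction.

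**Figure D5:**
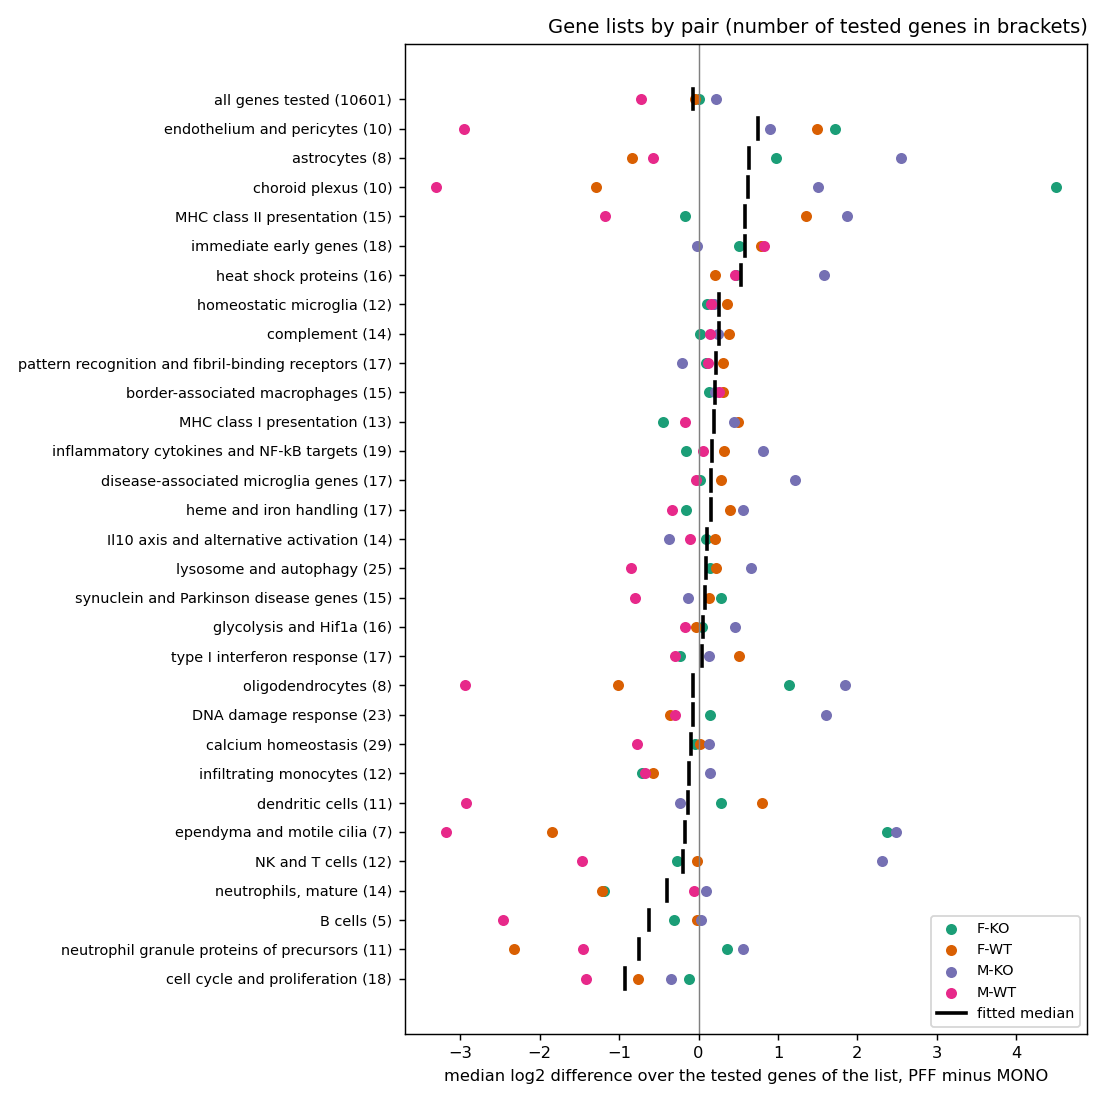
Each row is a gene list with its number of tested genes in brackets; coloured points are the medians of the log2 difference of PFF and MONO in the 4 pairs, and the black bar is the median of the fitted log2 fold changes. Immediate early genes and heat shock proteins have fitted medians of 0.58 and 0.54 and cell cycle genes of -0.93, while lists of other brain cells spread over several log2 units between pairs; by library totals the fitted medians were 0.15 for immediate early genes, 0.06 for heat shock proteins, -0.26 for border-associated macrophages and -0.21 for microglia, beside -0.56 for all genes.

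Genes of other brain cells differed widely between libraries of the same treatment. The 12 choroid plexus genes summed to 303, 20204, 67.5 and 3081 CPM in MONO and 8677, 7011, 229 and 578 CPM in PFF libraries. Ttr (transthyretin, the main secreted protein of that epithelium) was at 284, 11603, 32.1 and 2311 CPM in MONO and 4107, 4611, 189 and 355 CPM in PFF libraries. The pair medians of this list ran from 4.50 in F-KO to -3.31 in M-WT, and those of ependyma were 2.37, -1.85, 2.48 and -3.18. Both lists, and oligodendrocyte and astrocyte genes, had positive medians in both KO pairs and negative ones in both WT pairs. The pituitary hormone Gh reached 480.0 CPM in F-WT PFF and 101 CPM in M-KO PFF, and at most 6.15 CPM in the other 6.

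Endothelial and pericyte genes were higher in both F pairs for 8 of 10, against 24.3% of all genes, and lower for 0, and by library totals higher for 6, against 6.62%, with sums of 291, 701, 193 and 459.9 CPM in MONO and 522, 1616, 309 and 289 CPM in PFF libraries. Cldn5, a tight junction protein of brain endothelium, was at 7.48, 39.3, 0 and 35.3 CPM in MONO and 26.6, 293, 8.94 and 18 CPM in PFF libraries. Globin and other erythroid genes summed to 148, 1081, 35.9 and 77.9 CPM in MONO and 123, 499, 174 and 162 CPM in PFF libraries. Of 9 neuron genes 2 passed the filter and of 8 pituitary genes 3, so these lists say little about either tissue. The part of such cells in the differences described above was not tested.

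Whether the difference between PFF and MONO itself depended on genotype was tested as an interaction. edgeR called 0 of 10601 genes (0%), with 32 at an unadjusted p under 0.05 and a lowest adjusted p of 0.991, while DESeq2 called 26 (1431 at an unadjusted p under 0.05), with Ttr, Folr1 and Prlr of the choroid plexus list among them, and limma called 1, Ttr (209). DESeq2 gave no adjusted p for 2878 of these genes. The difference of the fold changes, KO minus WT, had a median of 1.10 over all genes. It was 0.60 without the M-KO pair, 0.29 without the M-WT pair, 0.62 by library totals and -0.08 by limma, and both libraries that stand apart are in this contrast too. The gene of lowest p in the positive direction was Noct, a deadenylase-like circadian protein. It was at 0, 10.7, 0.023 and 25 CPM in MONO and 27.7, 0, 42.2 and 0 CPM in PFF libraries, so that KO libraries had it after PFF and WT libraries after MONO. In the negative direction it was Ptprj, a receptor tyrosine phosphatase, at 46.2, 20.4, 88.3 and 19.5 and 15, 43.5, 39.4 and 75.7 CPM, lower after PFF in the KO and higher in the WT pairs.

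The same test for sex called 0 of 10601 genes (0%) with edgeR, with 68 at an unadjusted p under 0.05 and a lowest adjusted p of 1, while DESeq2 called 6 (1026 at an unadjusted p under 0.05) and limma 1, S100a8 (123). The genes of lowest p were Tsc1, at 3.56, 7.71, 0 and 0.0402 CPM in MONO and 3.41, 6.1, 7.51 and 53.5 CPM in PFF libraries, and Rab6b, at 3.92, 5.42, 29.6 and 2.98 and 51.8, 109, 3.01 and 0.138 CPM. Each M pair holds 1 of the libraries that stand apart, so this contrast cannot be told apart from them. Without the M-KO pair 2752 genes were called for it and without the M-WT pair 456, where 1 residual degree of freedom remained and a lone male pair was set against 2 female pairs.

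Against microglia of the same groups of mice, the difference was tested in a fit of all 16 libraries. edgeR called 0 of 10906 genes (0%), with 179 at an unadjusted p under 0.05 and a lowest adjusted p of 0.841, limma called 0 with 226, and DESeq2 called 12 with 676. The microglia library labelled F-KO MONO went against its label, with 799 Y-linked counts where the other F libraries had at most 2. Without the F-KO pair, edgeR called 0 of 11022 genes, with 119 at an unadjusted p under 0.05. Csnk1g3 had the lowest p in the positive direction, with a log2 difference of 5.00 ± 0.81 between the fold changes of macrophages and microglia, an edgeR adjusted p of 0.841 and a DESeq2 adjusted p of 1.21e-07. Spp1 differed by 1.51 ± 0.64, Pcbp1 by 1.44 ± 0.70 and Dusp1 by -0.04 ± 0.61, each with an adjusted p of 1 from edgeR. Glipr2 had the lowest p in the negative direction, with 45.5, 65.9, 64.1 and 50.8 CPM (MONO) and 27.5, 30, 63.8 and 27.5 CPM (PFF) in macrophages and 0, 0, 0.101 and 0 CPM (MONO) and 0, 3, 2.37 and 0.189 CPM (PFF) in microglia.

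The study left out the M-KO MONO library. Without it and its pair, edgeR called 0 of 10731 genes, with 110 at an unadjusted p under 0.05, and the median fold change of all genes was -0.34. Without the M-WT pair it called 0 of 10747, with 147, and the median was 0.13. Without both male pairs it called 0 of 10967, with 162 higher and 173 lower at an unadjusted p under 0.05 (3.05% together) and a lowest adjusted p of 0.206. In this last setting, added after the data were seen, 1 residual degree of freedom remained and the median of all genes was 0.02. Neutrophil markers then had a median of -1.18, immediate early genes of 0.69, heat shock proteins of 0.19, MHC class II genes of 0.61 (-0.05 without the M-KO pair alone, 1.01 without the M-WT pair alone and 0.10 by library totals) and border-associated macrophage markers of 0.30.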

How the data were processed

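The authors removed rRNA and low-quality reads, mapped with Bowtie2 and estimated expression with RSEM, and deposited 1 table per library of RefSeq transcripts with an estimated count and an FPKM. The submitters' processing notes also name mm10 and DESeq2. The study's batch correction and removal of outliers were not repeated here. Expected counts and FPKM were summed per gene symbol through RefSeq (GRCm38.p6), where 27632 of 27787 transcripts had a symbol, and transcripts not listed were set to 0. Counts were rounded, filtered with filterByExpr (minimum count 10, minimum total 15), scaled by TMM and fitted with edgeR 4.0.16 (R 4.3.3, limma 3.58.1) with the pair as a block. DESeq2 1.42.0 and limma on log2(FPKM + 1) were alternatives, and adjustment was by Benjamini-Hochberg over all genes tested, except that DESeq2 left 2878 genes without an adjusted p in the comparison by genotype. Totals of 12170686 to 21433841 set the precision, PCR copies included. List members and rules were chosen with earlier results of these data known. Named are the 10 of lowest p per direction among genes of 1 direction in 4 of 4 pairs, the 10 largest fold changes per direction among those of at least 50 mean CPM, list members (34 lists, 442 genes tested), label checks, and the gene of lowest p per direction of the other comparisons. Scripts were tested on simulated data. Pairing is by genotype and sex, not by mice, and libraries of a pair deviated from their group means with correlations of -0.059 to 0.221.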

Additional observations from a re-analysis of the deposited data

Results flagged for a closer look

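Of 72 groups of 4 gene levels examined, 10 held a library far from the other 3 by Dixon's criterion. Chance gives this in about 1 of 20 groups if the values are normally distributed. These groups are levels of genes chosen by rule, several with 3 libraries at or near 0, where that rate does not hold. The count of 10 is therefore not set against chance. By the same criterion, the M-WT PFF library stood far from the other PFF libraries in the number of transcripts listed, 9524. Single libraries set the PFF values of Gfra4 (1.03 CPM in M-KO), Gimap3 (1.03 CPM in M-KO), Mlst8 (3.88 CPM in M-KO), Cyp11a1 (1.58 CPM in M-KO), Plpp6 (10.1 CPM in F-KO) and Olr1 (0.197 CPM in F-WT), where the other libraries were at or near 0. Sult1a1 was at 0.0277 CPM in M-WT PFF and Rbm5 at 35.2 CPM in F-WT PFF, below the rest. Among MONO libraries, Adam23 was at 1.73 CPM in M-WT, above the rest, and Pdrg1 at 0 CPM in M-KO.

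For some lists both pairs of a genotype had medians on one side of 0 and both pairs of the other genotype on the other side, and the difference was not tested. The mean of the KO medians minus that of the WT medians was 5.30 for choroid plexus, 4.94 for ependyma, 3.47 for oligodendrocytes, 2.46 for astrocytes, 2.35 for granule proteins of neutrophil precursors, 1.20 for the DNA damage response and 0.35 for glycolysis on the log2 scale. Over all genes tested the pair medians lay on the same sides, and this difference was 0.49, more than that of glycolysis. By sex, the mean of the F medians minus that of the M medians was 2.12 for dendritic cells, 1.19 for neurons (2 genes tested), 0.67 for Parkinson disease genes, 0.39 for the Il10 axis and -2.89 for erythroid genes, which was not tested either. Over all genes it was 0.23. The M pairs hold the 2 libraries that stand apart, M-KO MONO and M-WT PFF, so both contrasts include them.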

How the results depend on the processing

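Over 15 settings of the pooled comparison, those fitted with edgeR called 0 genes, the fit with no replicate block included (0 called, 111 at an unadjusted p under 0.05), so that the pairing changed no call. The fits without both male pairs and the counts of list members by library totals and in the F pairs alone were added after seeing the data. DESeq2 called 5 and limma on log2(FPKM + 1) called 2. Leaving out 1 pair in turn gave 0 called in each case. For the difference by genotype, DESeq2 called 26, library totals 2, no filter 7 and limma 1, and leaving out 1 pair gave 0 to 41, with 41 without F-KO and 3 without M-KO. For the difference by sex, DESeq2 called 6 and limma 1, and leaving out 1 pair gave 0 to 2752, with 2752 without M-KO and 456 without M-WT. For macrophages against microglia, DESeq2 called 12. The cause of these differences was not tested, and leaving out a pair left 1 residual degree of freedom in the contrasts by genotype and sex. For named genes, 4 alternatives passed the threshold and 485 stayed on the same side, and of the list medians 474 moved by less than the spread between pairs and 32 by more. With 4 pairs, 2 of which hold a library that stands apart, 3 residual degrees of freedom limit what the pooled fit can call, and genes under the filter were not tested.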
